A study of Mus musculus with 4 samples.

Results

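Meningeal fibroblasts form the pia, arachnoid and dura that wrap the developing cortex. They lay down collagen and small leucine-rich proteoglycans, help build the basement membrane to which radial glia attach, and send retinoic acid, BMPs and Cxcl12 into the cortical wall. Forkhead factors of the Foxc type are needed for these membranes to form over the telencephalon. The 9 genes described here are Dcn, Lum, Ogn, Foxc1, Foxc2, Tbx18, Slc6a13, Slc47a1 and Ptgds. They were taken by name from the 26433 genes of the deposited table, and each name matched 1 row. Reads on them were rare in these cortices, between 89 and 161 of the 17423512 to 18119444 counts of a library, and none of them passed the test between genotypes.

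RNA from E15 telencephalic tissue was compared between 2 cKI and 2 WT libraries, which the table names KI2 and KI3, and WT1 and WT3. The cKI embryos carried one allele of flag-tagged human SERPINA3 under the CAG promoter in the Rosa26 locus, behind a floxed STOP cassette that Nestin-Cre removes in Nestin-positive cells and their progeny. The WT embryos were littermates, and their Cre status is not given in the sources used here. The labels give the strain as C57BL/6, while founder animals had been crossed to B6D2F2 according to the methods. The driver is one of neural progenitors, and whether the meninges were stripped before RNA extraction is not given in the sources used here. The human transgene was not analysed here, so the knock-in was not checked in the reads.

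The sample titles name embryo cortex, while the methods name telencephalic tissue. Neurod6, a factor of cortical projection neurons, had 17466 to 19586 counts per library, which does not tell these apart. Xist had 13223 and 11882 counts in the cKI libraries against 5 and 5 in the WT libraries, and the Y-linked gene Ddx3y had 0 and 0 against 364 and 393, so genotype and embryo sex cannot be told apart in any comparison below. KI3 also stood apart in the choroid plexus gene Ttr, with 956 counts against 116 in KI2, 0 in WT1 and 4 in WT3. All levels are given as CPM, which is counts scaled to the total of the library. A count of 3, taken as the floor of detection, corresponds to 0.166 to 0.172 CPM, and intervals on a single library are 95% exact Poisson intervals that cover counting error only.

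**Figure D1:**
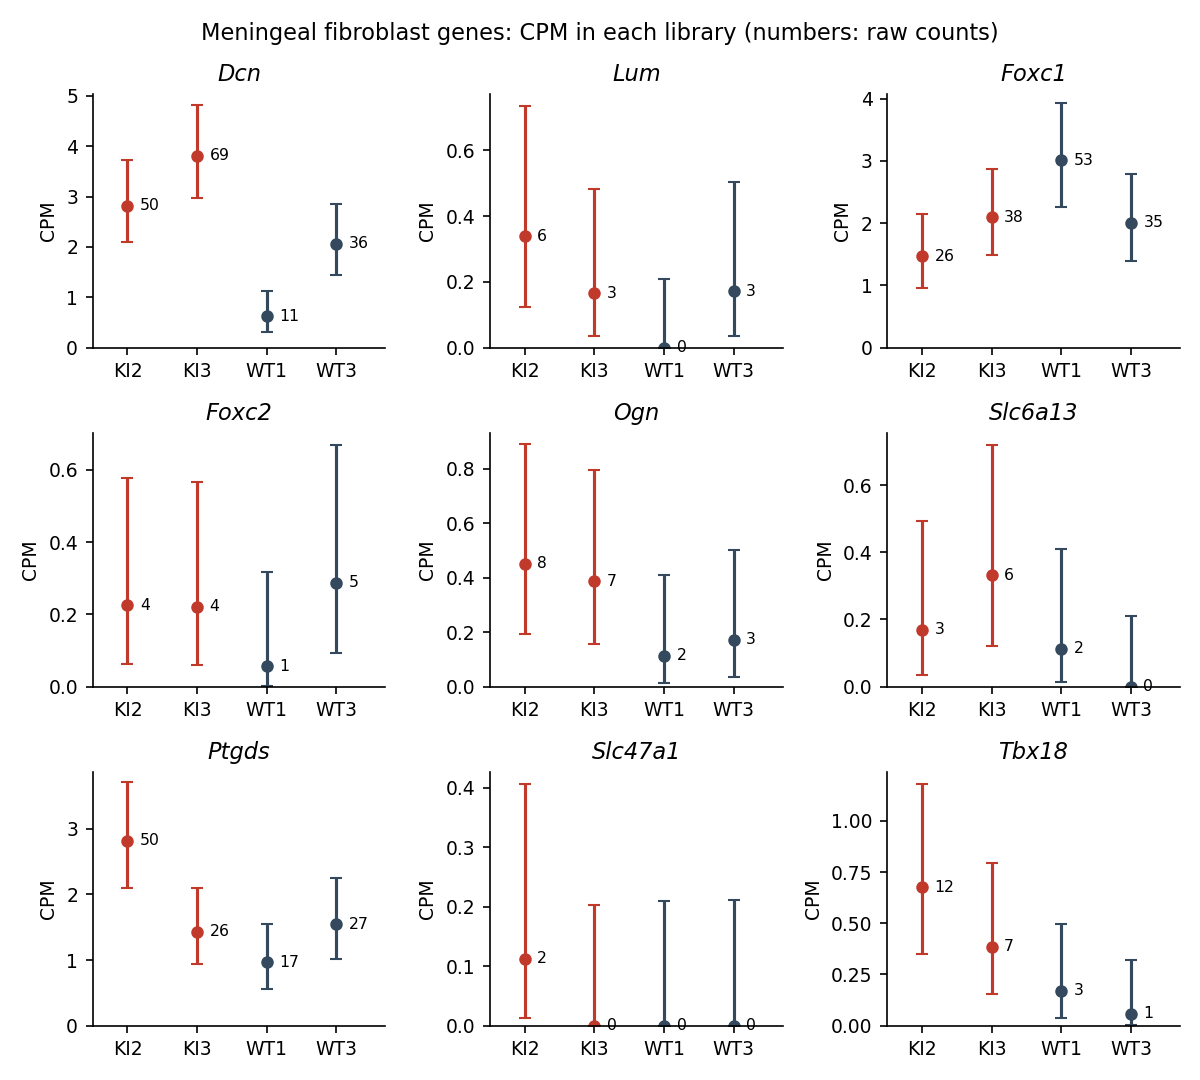
CPM (vertical axis, linear, from 0) of each of the 9 genes in the libraries KI2, KI3, WT1 and WT3 (horizontal axis). Points are single libraries with the raw count beside them, and bars are 95% exact Poisson intervals. Dcn, Ogn, Tbx18 and Slc6a13 have both cKI points above both WT points, while Foxc1 has its highest point, 53 counts, in WT1.

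Of the 9 genes, Dcn, Foxc1 and Ptgds had enough reads to enter the test, and the other 6 genes were removed by the filter on low counts. Across the 15786 genes tested with edgeR's quasi-likelihood test, 0.12% had a Benjamini-Hochberg adjusted p under 0.05, and 0 of the 3 tested genes did. At an unadjusted p under 0.05, Dcn alone was higher in cKI libraries, and 2.26% of all tested genes were higher by that measure. With 2 libraries against 2, an exact permutation test of a single gene cannot give a two-sided p below 0.333, so the adjusted p-values here borrow the spread from all genes. Nothing in the labels ties a library to a litter, and the p-values measure only the spread between these libraries.

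The proteoglycans Dcn, Lum and Ogn are secreted proteins that bind collagen fibrils. Dcn (decorin, ENSMUSG00000019929) spans chr10:97479609-97518143 on the plus strand of GRCm38. It had 50 and 69 counts in the cKI libraries and 11 and 36 in the WT libraries. These are 2.82 and 3.81 CPM against 0.624 and 2.07 CPM. Both cKI libraries lay above both WT libraries, and the WT libraries lay further apart than the cKI libraries. In RNA of whole tissue, fewer cells of a type and less RNA per cell cannot be told apart, for this gene as for those below. The log2 fold change of Dcn was 1.30 (standard error 0.45, 95% interval 0.29 to 2.31), with an unadjusted p of 0.0169 and an adjusted p of 0.969 from the edgeR fit over all genes. The value depended on which WT library was used. Without WT3 it was 2.40, and without WT1 it was 0.69. Each of these fits leaves 1 WT library, so only the size of the change is given. Within groups, the CPM of Dcn differed by 0.43 on the log2 scale between KI2 and KI3 and by 1.73 between WT1 and WT3, where the median of the 4423 tested genes with a mean of 10 to 100 counts and reads in every library was 0.33 and 0.35.

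Lum (lumican, ENSMUSG00000036446) lies 46984 bases beyond Dcn, at chr10:97565128-97572703 on the same strand. It had 6 and 3 counts in the cKI libraries and 0 and 3 in the WT libraries. KI3 and WT3 were alike at 0.166 and 0.172 CPM, so the groups overlapped. The summed counts were 9 against 3, a ratio of 2.93 with a 95% counting interval of 0.732 to 16.8. Such an interval treats the reads of a group as a single pool. It leaves out the spread between libraries, here and below, and is no test of genotype.

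Ogn (osteoglycin, ENSMUSG00000021390) is at chr13:49608046-49624501, in a row of proteoglycan genes with Omd, Aspn and Ecm2. It had 8 and 7 counts in the cKI libraries and 2 and 3 in the WT libraries. The level was 0.419 ± 0.0458 CPM (SD, n = 2) in cKI and 0.143 ± 0.0415 CPM (SD, n = 2) in WT. The libraries of each group lay close together and the groups did not overlap, on 15 counts against 5 (ratio 2.93, 95% counting interval 1.01 to 10.3). Among its neighbours, Omd had 0 and 1 counts in cKI against 3 and 0 in WT, and Aspn had 0 and 2 against 1 and 2. Ecm2, at 38 and 41 counts against 21 and 36, had more reads than Ogn and also had both cKI libraries above both WT libraries, with a log2 fold change of 0.44 (adjusted p = 0.970, edgeR). Ogn overlaps Cenpp, a centromere gene on the opposite strand, and shares none of its 31-base words with the annotated Cenpp transcripts. Reads of unspliced Cenpp RNA are not covered by that comparison.

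The transcription factors were Foxc1, Foxc2 and Tbx18. Foxc1 directs the growth of the meninges and is also made by pericytes of brain vessels. It (ENSMUSG00000050295) lies at chr13:31806633-31812476 on the plus strand and had 26 and 38 counts in the cKI libraries against 53 and 35 in the WT libraries. In CPM this was 1.47 and 2.10 against 3.01 and 2.01. WT1 was the highest library and KI2 the lowest, and KI3 and WT3 were alike. Its log2 fold change was -0.49 (standard error 0.33, 95% interval -1.23 to 0.26), the only negative one among the 3 genes tested, with an adjusted p of 0.969 from the edgeR fit. It was -0.17 without WT1. Foxf2 and Foxq1, the forkhead genes beside it on chromosome 13, had log2 fold changes of -0.20 (adjusted p = 0.990, edgeR) and -0.21 (adjusted p = 0.990, edgeR), and the sign of Foxf2 turned to 0.11 without WT3. Of Foxf2, Foxq1, the T-box gene Tbx2 and the homeobox gene Prrx1, the tested genes of a list of mesenchymal transcription factors, 0 of 4 were called, and their median log2 fold change was -0.11.

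Foxc2 (ENSMUSG00000046714), which acts alongside Foxc1 in head mesenchyme, lies at chr8:121116171-121118895. It had 4 and 4 counts in the cKI libraries and 1 and 5 in the WT libraries. WT3 was the highest and WT1 the lowest, so the groups overlapped, and the ratio of 8 to 6 counts was 1.30 with a 95% counting interval of 0.396 to 4.56. Few reads could be shared between the Foxc genes, as 0.585% of the 31-base words of Foxc1 occur in Foxc2 and 1.26% of those of Foxc2 in Foxc1. The gene model Gm20388 overlaps Foxc2 on the same strand and was not analysed here.

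Tbx18 (ENSMUSG00000032419) is a T-box factor of the leptomeninges that also marks pericytes and smooth muscle cells. It lies at chr9:87702800-87731260 on the minus strand and had 12 and 7 counts in the cKI libraries against 3 and 1 in the WT libraries. The level was 0.531 ± 0.205 CPM (SD, n = 2) in cKI and 0.114 ± 0.0798 CPM (SD, n = 2) in WT. Both cKI libraries lay above both WT libraries. The ratio of 19 to 4 counts was 4.64 with a 95% counting interval of 1.54 to 18.8, which leaves out the spread between libraries. When no filter on low counts was used, Tbx18 and Dcn were the 2 of the 9 genes with an unadjusted p under 0.05, where 1.58% of 26433 genes were higher in cKI by that measure, and both had an adjusted p of 0.889 from that edgeR fit. The transcript D030062O11Rik on the opposite strand shares 18.9% of the 31-base words of Tbx18. Whether the counting used strand is not given in the sources used here, so reads of the shared part cannot be assigned to one of them.

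The transporters had the fewest reads of the 9 genes. Slc6a13 (ENSMUSG00000030108), which carries GABA and taurine across leptomeningeal membranes, lies at chr6:121300227-121337733 and had 3 and 6 counts in the cKI libraries against 2 and 0 in the WT libraries. In CPM this was 0.169 and 0.331 against 0.114 and 0, and both cKI libraries lay above both WT libraries. The ratio of 9 to 2 counts was 4.40, and its 95% counting interval of 0.910 to 41.8 spans equality on counting error alone. Slc47a1 (ENSMUSG00000010122), an exporter of organic cations at chr11:61343401-61378345, had 2 counts in KI2 and 0 in each of the other libraries. The upper 95% limit at a count of 0 was 0.204 CPM in KI3, 0.209 in WT1 and 0.212 in WT3, so a difference was not detectable at this depth. Of 13 other carriers in the table, 3 had both cKI libraries above both WT libraries and 2 had both below, against 13.1% and 16.8% of all genes. At an unadjusted p under 0.05, 0 of the 7 tested were higher in cKI and 2 were lower, against 2.26% and 2.34% of all tested genes. These 2 were Slc22a8, with 23 and 19 counts in cKI against 37 and 34 in WT, and Slc6a11, a GABA carrier, with 172 and 147 against 202 and 252. Slc6a12, which holds 1.08% of the 31-base words of Slc6a13, had 4 and 3 counts against 0 and 1, and Slc13a4 had 10 and 9 against 3 and 5.

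Ptgds (ENSMUSG00000015090), which makes prostaglandin D2 and is a main secreted protein of the leptomeninges and choroid plexus, lies at chr2:25466709-25470046 on the minus strand. It had 50 and 26 counts in the cKI libraries against 17 and 27 in the WT libraries. KI2 stood above the other libraries at 2.82 CPM, while KI3 at 1.43 CPM lay between WT1 at 0.965 and WT3 at 1.55 CPM. The log2 fold change was 0.76 (standard error 0.42, 95% interval -0.18 to 1.70, adjusted p = 0.969, edgeR), and it was 0.18 without KI2. Of the 8 tested prostaglandin synthases and related enzymes, 0 were called and the median log2 fold change was 0.02. The receptors Ptgdr and Ptgdr2 had too few reads to be tested. Hpgds, the other prostaglandin D2 synthase, had 26 and 34 counts against 34 and 32.

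**Figure D2:**
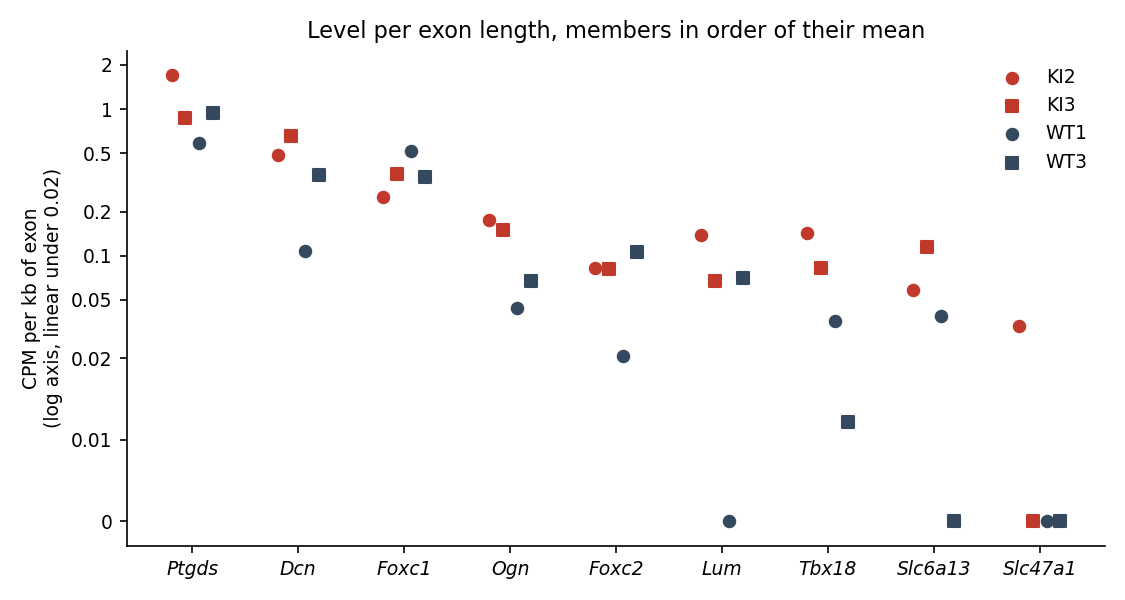
CPM per kb of exon (vertical axis, log scale, linear under 0.02) for the 9 genes, ordered by their mean over the libraries. Each point is a library (cKI red, WT dark). Ptgds, Dcn and Foxc1 lie above the other 6 genes in their means, and every gene from Ogn downwards has at least one library below 0.07.

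Levels of different genes were compared per kb of exon, with exon lengths from GENCODE M21. Ptgds led with a mean of 1.03 CPM per kb over the 4 libraries and a range of 0.585 to 1.71. Dcn followed at 0.399 and Foxc1 at 0.367, and the range of Dcn, 0.107 to 0.652, overlapped those of both Ptgds and Foxc1. The range of Foxc1, 0.251 to 0.515, lay wholly above that of Ogn, 0.0442 to 0.176. From Ogn downwards the order was Foxc2, Lum, Tbx18, Slc6a13 and Slc47a1, and each of these overlapped its neighbour, so that order is not resolved. Slc47a1 was the lowest with a mean of 0.00833 CPM per kb.

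The table of RefSeq promoters used here gave sequence for Foxc1, Ogn, Slc6a13, Ptgds and Tbx18, on build GRCm38.p6. Those of Dcn, Lum, Foxc2 and Slc47a1 were not analysed here. The windows ran from 250 bases before the start to 50 after it, and the 250 bases before the start are shown for Foxc1, the tested gene with a negative log2 fold change, for Ogn, a gene whose groups did not overlap, and for Ptgds, the highest per kb. CpG dinucleotides are in capitals. The Foxc1 stretch is chr13:31806396-31806645 on the plus strand, that of Ogn chr13:49607765-49608014 on the plus strand, and that of Ptgds chr2:25469750-25469999 on the minus strand.
Foxc1: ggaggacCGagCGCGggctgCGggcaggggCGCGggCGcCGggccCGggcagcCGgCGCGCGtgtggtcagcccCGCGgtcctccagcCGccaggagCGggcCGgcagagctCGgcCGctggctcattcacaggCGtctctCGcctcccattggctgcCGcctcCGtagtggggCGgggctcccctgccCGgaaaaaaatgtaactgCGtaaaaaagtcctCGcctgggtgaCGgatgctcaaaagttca
Ogn: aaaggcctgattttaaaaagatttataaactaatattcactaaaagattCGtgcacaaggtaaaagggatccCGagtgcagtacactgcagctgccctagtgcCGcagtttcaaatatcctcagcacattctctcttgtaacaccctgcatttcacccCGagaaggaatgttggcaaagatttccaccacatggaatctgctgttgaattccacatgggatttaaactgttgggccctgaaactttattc
Ptgds: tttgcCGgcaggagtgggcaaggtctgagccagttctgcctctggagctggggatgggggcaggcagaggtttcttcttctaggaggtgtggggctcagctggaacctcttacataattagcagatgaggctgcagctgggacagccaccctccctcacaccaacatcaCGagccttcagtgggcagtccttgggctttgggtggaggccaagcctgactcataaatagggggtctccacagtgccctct
The stretches differ in CpG content, with 29 CpG in that of Foxc1, 4 in that of Ogn and 2 in that of Ptgds. Over the full window, Foxc1 had 32 CpG and 67.3% G and C, where the median of all 32851 promoters was 7 CpG and 52.7%. Tbx18 had 15 CpG, and the 3 windows of Slc6a13 had 11, 7 and 2. Words of 4 motifs were searched on both strands, and none of these words is contained in another. The TATA box, spelled TATAAA, matched in Ogn once on each strand, in 1 stretch of overlapping letters, and is held by 13.6% of all promoters. The T-box half-site, spelled TCACACC, occurred once in Ptgds and is held by 3.98%. The forkhead word, spelled TGTTTAC, is held by 3.65% and occurred in none of these windows. The GC box, spelled GGGCGG, is held by 35.7% and occurred in Foxc1 and in 1 window of Slc6a13. No word occurred in more than 2 of the 5 genes, and a match is a description of letters only.

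Over all 9 genes, Dcn, Ogn, Tbx18 and Slc6a13 had both cKI libraries above both WT libraries, and 0 genes had both below. In the whole table, 13.1% of 26433 genes had both cKI libraries above both WT libraries and 16.8% had both below. WT1 was the lowest library for 5 of the 9 genes and KI2 the highest for 5. The counts of the 9 genes summed to 161 and 160 in the cKI libraries and to 89 and 110 in the WT libraries. This is 9.08 and 8.83 CPM against 5.05 and 6.31 CPM, a ratio of means of 1.58, and it is given as a description with no test. Dcn and Foxc1 held most of these reads and went opposite ways. Without Dcn the sums were 6.26 and 5.02 CPM in cKI against 4.43 and 4.25 CPM in WT, a ratio of 1.30. Without Foxc1 they were 7.61 and 6.73 CPM against 2.04 and 4.30 CPM, a ratio of 2.26.

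**Figure D3:**
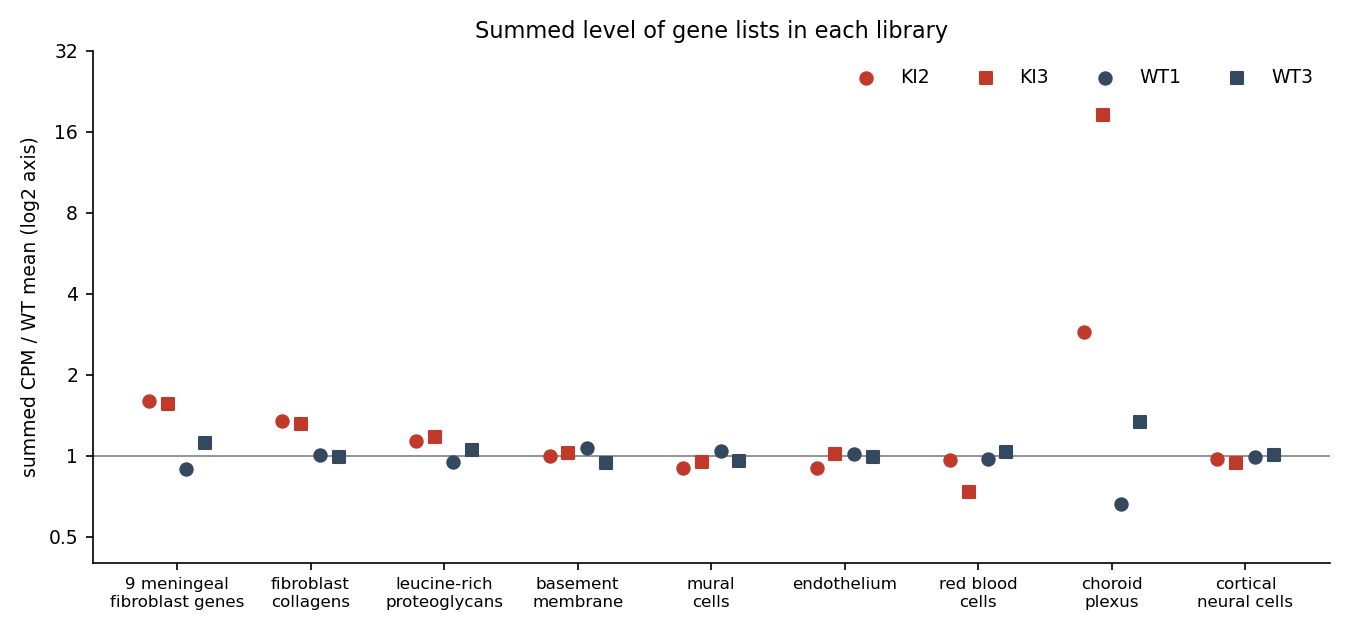
Summed CPM of gene lists in each library divided by the mean of the WT libraries (vertical axis, log2 scale). Each point is a library, red for cKI and dark for WT. The sums of the 9 genes and of the fibroblast collagens are higher in both cKI libraries, and mural, endothelial and neural lists lie near 1. The choroid plexus list is higher in both cKI libraries than in both WT libraries, and by far the highest in KI3.

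Other genes of fibroblasts were examined as lists. The 12 collagens that fibroblasts secrete summed to 72.3 and 70.3 CPM in the cKI libraries and to 54.1 and 53.3 CPM in the WT libraries. Of the 10 tested, 0 were called, 5 were higher in cKI at an unadjusted p under 0.05 and 1 was lower, against 2.26% and 2.34% of all tested genes. Their median log2 fold change was 0.38, where that of all tested genes was 0.00427. Col1a1, which encodes a chain of the type I fibril, had 82 and 64 counts in cKI against 10 and 28 in WT (log2 fold change 1.91, standard error 0.41, adjusted p = 0.400, edgeR). Like Dcn, it was lowest in WT1. Its log2 fold change was 2.09 without KI3, 2.84 without WT3 and 1.34 without WT1, in fits that leave 1 library in a group. Col1a2, the partner chain, had 99 and 57 counts against 30 and 28 (log2 fold change 1.40, standard error 0.33, adjusted p = 0.573, edgeR). Its log2 fold change was 1.76 without KI3 and 0.91 without KI2. Col3a1 had 117 and 121 counts against 72 and 64, and Col5a1 had 342 and 414 against 255 and 271. Col14a1 went the other way, with 9 and 16 counts against 29 and 25. Col12a1 and Col15a1 were nearly level, with log2 fold changes of -0.02 and -0.07. Of the 10 tested, 7 had a positive log2 fold change. Col1a1, Col1a2, Col3a1, Col14a1 and Col15a1 were singled out after their values were seen.

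Among other small leucine-rich proteoglycans, 6 were tested and 0 called, and their median log2 fold change was 0.39. Fmod (fibromodulin) had 17 and 16 counts in cKI against 3 and 1 in WT (log2 fold change 2.94, standard error 0.64, adjusted p = 0.436, edgeR) and was singled out after its values were seen. It passed the filter on low counts only through its cKI libraries, and the median of 0.39 includes it. Prelp had 153 and 186 counts against 66 and 125, again lowest in WT1. Its log2 fold change of 0.80 was 1.34 without WT3 and 0.40 without WT1. Bgn (biglycan), the most abundant of them, had 255 and 257 counts against 289 and 290.

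Of the other meningeal markers, 17 were tested and 0 called, and the median log2 fold change was 0.12. At an unadjusted p under 0.05, 1 was higher in cKI and 0 lower, against 2.26% and 2.34% of all tested genes. The higher gene was Crabp2, with 82 and 134 counts against 69 and 68 (log2 fold change 0.62, adjusted p = 0.969, edgeR). Its log2 fold change was 0.25 without KI3. This list is led by Nnat, Vim and Igfbp2, which neural cells also make. Of the 23 genes in the table, 7 had both cKI libraries above both WT libraries and 4 had both below, against 13.1% and 16.8% of all genes. Twist1, a mesenchymal factor, had 7 and 4 counts in cKI against 0 and 1 in WT, and Gjb2, a gap junction protein of the meninges, had 4 and 1 against 0 and 0. Mgp, a matrix protein, had 1 and 0 counts against 4 and 2, and the forkhead gene Foxp1 had 948 and 886 against 1027 and 978. These 4 and Crabp2 were singled out after their values were seen. Of the signals by which the meninges act on the cortex, 11 genes were tested, 0 were called, and 5 had a positive log2 fold change. Cxcl12, which guides Cajal-Retzius cells and interneurons, had 575 and 655 counts in cKI against 640 and 710 in WT. Aldh1a2, the retinoic acid enzyme of the meninges, had 6 and 9 counts against 0 and 7. Igf2 had 851 and 955 counts against 663 and 795 (log2 fold change 0.28, adjusted p = 0.969, edgeR). The basement membrane list had 0 of 15 genes called and a median log2 fold change of -0.02. Among the solute carriers, 0 of 7 were called, with a median of -0.07.

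**Figure D4:**
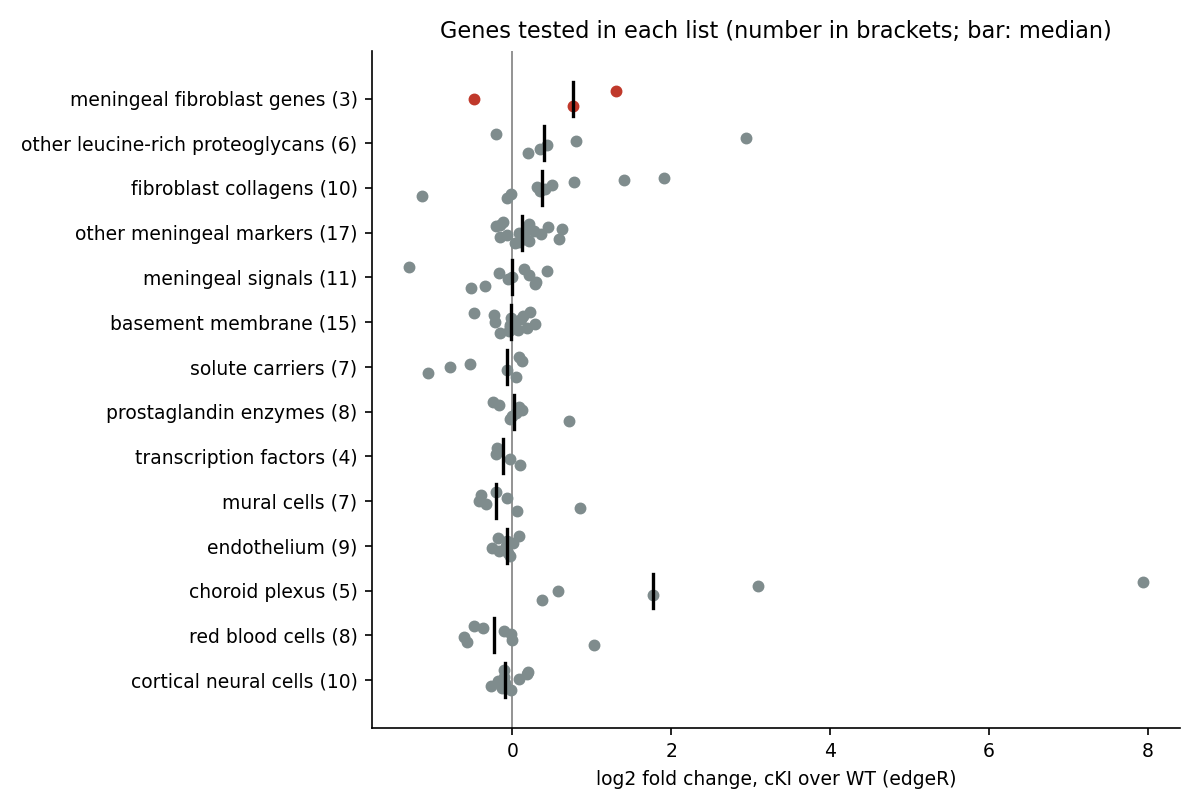
Log2 fold change of cKI over WT (horizontal axis) for the tested genes of each list (rows, with the number tested). Points are genes and black bars are medians. The 3 tested meningeal fibroblast genes lie at 1.30, 0.76 and -0.49, and the choroid plexus genes spread furthest, up to Ttr at 7.94.

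Marker lists of other cells gave the following values beside these genes. Vascular mural cells, which share Foxc1 and Tbx18 with the meninges, summed to 136 and 142 CPM in cKI against 158 and 144 CPM in WT. Of the 7 tested, 0 were called, and their median log2 fold change was -0.20. Rgs5, a pericyte gene, had a log2 fold change of -0.40 (adjusted p = 0.667, edgeR), the lowest p of these 7. The 2 with a positive log2 fold change were Notch3, the most abundant, at 0.05 and Anpep at 0.85. Endothelial genes summed to 159 and 180 CPM against 179 and 175 CPM. Red blood cell genes summed to 506 and 384 CPM against 509 and 538 CPM. The 8 choroid plexus genes summed to 10.6 and 68.2 CPM against 2.44 and 4.94 CPM. Of the 5 tested, 0 were called and 3 were higher in cKI at an unadjusted p under 0.05, against 2.26% of all tested genes. Ttr had an adjusted p of 0.115 from the edgeR fit, and it passed the filter on low counts only through its cKI libraries. Clic6 too would not have passed that filter on its WT libraries, so the 3 of 5 rests partly on the filter. Clic6 had 15 and 118 counts in cKI against 5 and 10 in WT, and Aqp1 had 30 and 65 against 15 and 12. The groups overlapped for Otx2, with 13 and 64 counts against 19 and 39, and for Folr1, with 9 and 20 against 3 and 16. They also overlapped for Calml4, with 3 and 12 counts against 1 and 4. Kl and Kcnj13 of the same list were at or under 3 counts in every library. The stroma of the choroid plexus holds fibroblasts too. Of 10 genes of bone, cartilage, muscle and skin, 5 were at or under 3 counts in every library, and Col2a1 gave most of the reads of that list. The part of any of these tissues in the values of the 9 genes was not tested.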

How the data were processed

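RNA was isolated from the telencephalon of E15 embryos of both genotypes and sequenced on an Illumina HiSeq instrument. The deposited values are raw counts of reads on genes in 4 libraries, to which the authors applied no normalization. The submitters' processing notes name Bowtie2 2.2.3, TopHat2 2.0.12, HTSeq 0.6.0 and build mm9, with no role given, while the positions of 24485 of 26433 genes in the table, including all 9 described here, are those of GENCODE M21 on GRCm38. The table also holds columns of the authors' own comparison, a deposited mean signal, a fold change as a ratio and as log2, and a p-value with its adjusted p-value, and none of these was used. The columns name the genotype, but their numbers do not identify single labelled samples. Triplicates are mentioned in the labels, whereas each group has 2 libraries here.

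Library totals were 17736663 (KI2), 18119444 (KI3), 17615212 (WT1) and 17423512 (WT3) counts. Replicates were not copies, with a chi-square per degree of freedom of 4.36 within cKI and 5.67 within WT. CPM used these totals. With R 4.3.3, edgeR 4.0.16 kept 15786 genes (filterByExpr), scaled them by TMM, and tested cKI against WT with the quasi-likelihood F-test, adjusting p by Benjamini-Hochberg over all genes with a threshold of 0.05. A standard error is the log2 fold change divided by the square root of F. Counting intervals of ratios are exact conditional binomial intervals at 95% on the summed counts of each group, so they leave out the spread between libraries. The test was checked on simulated counts. Alternatives were DESeq2 1.42.0, the likelihood ratio test, other scalings and filters, and each library left out in turn. Shared reads were looked for as 31-base words of GENCODE M21 transcripts. The 9 genes and all lists were chosen with earlier results of these data known. Genes named from a list are those called, or at most its 3 with the highest mean CPM, and the chromosomal neighbours of the 9 genes that a list holds. Other genes named, among them Slc6a12, Slc22a8, Slc6a11, Slc13a4, Hpgds, Aldh1a2, Prrx1, Kl and Kcnj13, were chosen after their values were seen.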

Additional observations from a re-analysis of the deposited data

How the results depend on the processing

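The number of the 9 genes called was 0 with the edgeR quasi-likelihood test, and also with DESeq2, the likelihood ratio test and the other scalings and filters. It was 1, Dcn, at an unadjusted p under 0.05. Leaving out a library keeps 1 library in a group, so genes called are not given for those fits, neither among the 9 nor over all genes. Over 10 alternatives the log2 fold change of Dcn ran from 0.69 to 2.40, of Ptgds from 0.18 to 1.17 and of Foxc1 from -0.77 to -0.17, with no change of sign. Over all genes, 19 were called, 6 when 10 counts were required in each library, 54 by the likelihood ratio test, 726 at an unadjusted p under 0.05, and 46 to 71 with a library left out. The cause was not tested. The median log2 fold change of the tested genes among the 9 was 0.76 over 3 genes, 1.56 with DESeq2 and 1.48 with no filter, both over 9 genes, and 0.18 to 1.37 with a library left out. The ratio of the summed CPM, 1.58, was 1.42 to 1.77 with a library left out, 1.30 without Dcn and 2.26 without Foxc1, the last chosen after seeing the data. Alternatives were also run for 23 other genes of the lists, none of which was called and not all of which are named above. By the likelihood ratio test, Col1a1, Col1a2, Fmod and Ttr came to pass the threshold. Of 226 values, the sign of 1 turned, that of Foxf2, which ran from -0.45 to 0.11 with a library left out (0.11 without WT3). Other genes named above, among them Hpgds, Tbx2, Prrx1, Foxp1 and Col2a1, were not followed over the alternatives. No paired analysis was possible because the labels of the groups share no replicate number. Depth limits Lum, Foxc2, Ogn, Slc6a13, Slc47a1 and Tbx18, whose counts were at most 12 in a library.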
